A study of Mus musculus with 8 samples.

Results

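Cytotoxic lymphocytes, the CD8+ T cells and natural killer (NK) cells, kill other cells by releasing granules. Perforin opens the target's membrane and granzymes, serine proteases, enter through it and cleave proteins that trigger cell death. The programme is switched on by the T-box transcription factors T-bet and Eomes, is engaged through the T-cell receptor or through receptors for stress-induced ligands such as NKG2D, and comes with secretion of interferon gamma. The 10 transcripts described here were chosen by gene symbol from the 23235 genes of the authors' deposited table: Gzma, Gzmb, Gzmc, Prf1, Nkg7, Klrk1, Ifng, Ncr1, Tbx21 and Eomes. All 10 symbols had a row.

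Poly(A) RNA was sequenced from squamous cell carcinomas of the mouse tongue and from normal (control) tongue, all in female C57BL/6 mice. The 3 tumour samples came from animals given 4-nitroquinoline 1-oxide (4-NQO), a carcinogen that forms bulky DNA adducts, and the 5 normal samples from animals that were not. Dose, duration of exposure and age are not given in the labels. Each value averages the lymphocytes with epithelium, muscle, stroma and other leukocytes of the tissue, and more cells of a type cannot be told apart from more RNA per cell.

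All levels, fold changes and q-values come from the authors' deposited table, which holds 1 FPKM (fragments scaled to the length of the transcript and to the size of the library) per gene and group. Values for each sample are not in it, so the overlap between tumour and normal samples cannot be seen, and the depth is unknown. Fold changes are tumour over normal on the log2 scale, and the ± beside each is its standard error, derived from the authors' statistic. A gene counts as compared where the table gives it the status OK, and as called where its q-value is under 0.05. Epithelial and muscle identity was plain in the tissue: Cdh1, the epithelial cadherin, stood at 33.2 FPKM in control tongue and 78.1 in the carcinomas, and none of the 3 compared epithelial genes was called. The basal keratin gene Krt5 was the most abundant of these, at 843 and 3201 FPKM (1.93 ± 2.38, q = 1.00). The muscle filament gene Des was at 1071 and 353 FPKM, and the myosin Myh2 was called lower (−3.65 ± 0.67, q = 7.74e-06), the only call among the 2 compared muscle genes. Several keratin and muscle genes, among them Tnnt3 at 0 and 2362 FPKM, have a group listed at 0 and the status HIDATA. They were not compared, and the 0 is not read as absence.

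The cytotoxic programme was scarce in both tissues, and 2 of its transcripts rose in tumours. Eomes and Gzmb rose in the authors' deposited table, 55.9-fold and 11.9-fold, and no compared member was called lower. No member exceeded 1.13 FPKM in either group, beside a median of 5.82 FPKM in control tongue and 5.69 in the carcinomas over all compared genes. The authors compared 7 of the 10, and 2 of those 7 were called, both higher. Over all 15783 compared genes 6.26% were called, 3.07% higher and 3.19% lower. Among the 1644 compared genes whose higher group value lay in the same range as the members', 0.430 to 1.13 FPKM, 2.55% were called, 1.89% higher. Under other rules, 2 members were called with a Benjamini-Hochberg adjustment over the compared genes (9.00% of all) and with q under 0.1 (8.05% of all), 1 with q under 0.01 (3.62%), and none where the higher group had to reach 1 FPKM (7.01%). No gene was compared unless its higher group value reached 0.236 FPKM. Of the 7 compared members, Gzma, Gzmb, Klrk1 and Eomes lay below that level in normal tongue and were compared only through their tumour value, so their direction was fixed by this filter, and none was compared only through its normal value. Among the 1644 genes of similar level, 161 were compared only through their tumour value and 194 only through their normal value. The shares called among the 1644 are therefore no matched background for the members. The median log2 fold change of the 7 was 1.29, which is Klrk1's own, beside −0.04 over all compared genes and −0.25 over those of similar level. It describes the members that passed the filter and is no evidence of a shared direction. Prf1, Ifng and Ncr1 have the status NOTEST in the deposited table, so their values are given as levels only.

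**Figure D1:**
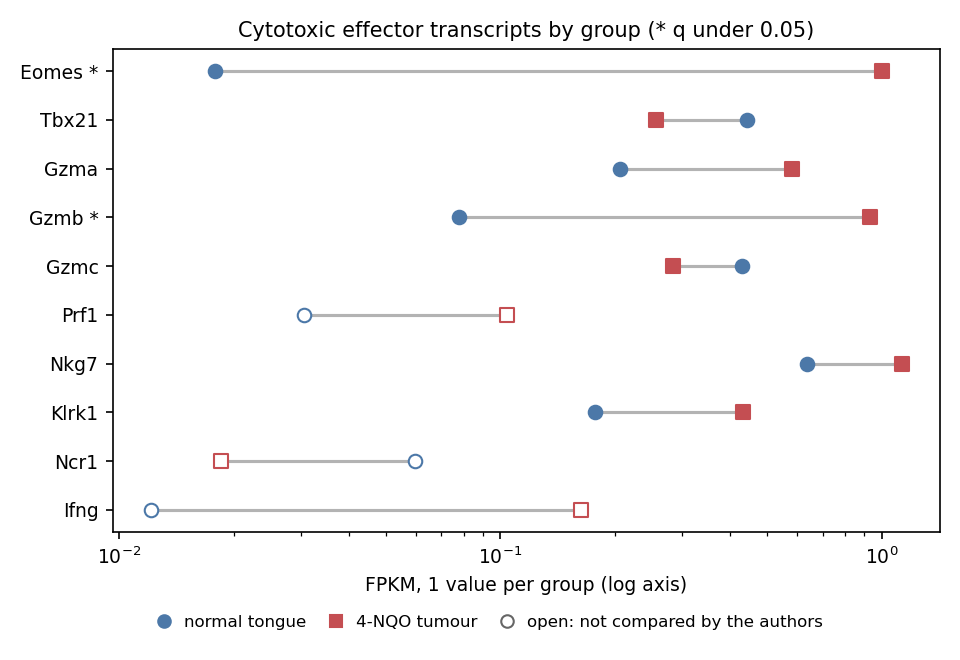
FPKM (log axis) of the 10 effector transcripts in normal tongue (blue circles) and 4-NQO tumours (red squares), with 1 deposited value per group and no error; open symbols mark genes the authors did not compare and asterisks mark q under 0.05. Eomes and Gzmb show the widest gaps among the compared genes, while Tbx21, Gzmc and Ncr1 lie lower in tumours without a call.

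Of the 2 transcription factors only Eomes was called. Eomes, which drives effector and memory differentiation of CD8+ T cells and maturation of NK cells, was listed at 0.0179 FPKM in control tongue and 0.999 in the carcinomas in the authors' deposited table. It was the ninth most abundant member in normal tongue and the second in tumours. Its log2 fold change was 5.80 ± 1.48 (q = 0.0054), ranking 48 from the top of the 15686 compared genes with a value above 0 in both groups. The normal value is so low that the size of the ratio depends on it: with 0.1 FPKM added to both groups the log2 fold change was 3.22, and with 1 FPKM added it was 0.97. Tbx21, which encodes T-bet, the factor for interferon gamma production and terminal effector differentiation, was listed at 0.443 FPKM in control tongue and 0.255 in the carcinomas. Its log2 fold change of −0.80 ± 0.81 did not pass (q = 1.00), with a 95% interval from −2.38 to 0.79. Whether the changes of Eomes and Tbx21 differ from each other was not tested.

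Among the 3 granzyme members only Gzmb was called. Granzyme B cleaves after aspartate and activates caspases in the target cell. Its transcript was at 0.0778 FPKM in control tongue and 0.928 in the carcinomas in the authors' deposited table, a log2 fold change of 3.58 ± 1.03 (q = 0.0234), or 2.53 with 0.1 FPKM added to both groups and 0.84 with 1 FPKM added. Gzma, a tryptase-like granzyme with inflammatory actions, was at 0.205 and 0.583 FPKM, with no call (1.51 ± 1.03, q = 0.977), with a 95% interval from −0.51 to 3.52. Gzmc, a granzyme of strongly activated mouse T and NK cells, was listed at 0.430 and 0.284 FPKM, also without a call (−0.60 ± 1.00, q = 1.00). In normal tongue Gzmc was therefore listed above Gzma and Gzmb, and in tumours below both. With no value per sample, it cannot be said which neighbours in this order of levels differ beyond their spread.

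Gzmb and Gzmc lie next to each other at one end of a cluster of granzyme and mast cell protease genes on chromosome 14. The table places Gzmc at chr14:56850238-56853493 and Gzmb at chr14:56877695-56881097, in coordinates of a mouse build not given in the sources used here, counted from 1. Their promoters are shown because both belong to this programme while only Gzmb was called. The 250 bases before each RefSeq transcription start (GRCm38.p6, minus strand, chr14:56262335-56262584 for Gzmb and chr14:56234658-56234907 for Gzmc) are printed 5′ to 3′. Capitals mark the RUNX core TGTGGT or its reverse complement ACCACA, and the T-box half-site TCACAC or its reverse complement GTGTGA.
Gzmb: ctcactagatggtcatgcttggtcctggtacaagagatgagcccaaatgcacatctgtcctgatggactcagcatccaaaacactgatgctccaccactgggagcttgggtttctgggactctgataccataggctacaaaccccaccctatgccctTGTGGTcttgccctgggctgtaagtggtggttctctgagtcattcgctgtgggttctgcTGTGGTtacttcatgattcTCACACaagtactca
Gzmc: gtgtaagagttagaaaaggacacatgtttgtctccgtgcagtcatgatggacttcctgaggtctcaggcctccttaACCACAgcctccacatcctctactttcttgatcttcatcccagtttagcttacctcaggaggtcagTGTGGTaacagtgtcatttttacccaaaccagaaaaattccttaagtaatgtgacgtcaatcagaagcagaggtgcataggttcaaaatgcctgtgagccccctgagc

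The Gzmb window holds 2 RUNX cores, 93 and 34 bases before the start, and 1 T-box half-site, 15 bases before it. The Gzmc window holds 2 RUNX cores, at 174 and 108 bases, and no T-box half-site. The bases just after the RefSeq start matched a protein-coding GENCODE M21 transcript for Gzmc, but not for Gzmb, Prf1 or Eomes. The windows of these unmatched genes, and the distances given for Gzmb, therefore rest on the RefSeq start alone. RUNX3 and the T-box factors are known regulators of cytotoxic genes. Among the 32851 RefSeq promoter windows of this length, 14.05% hold the RUNX core and 12.3% the T-box half-site on either strand. Of the 10 members, all with a promoter entry, 7 hold the RUNX core (Gzma, Gzmb, Gzmc, Prf1, Nkg7, Klrk1 and Ncr1) and 3 the T-box half-site (Gzmb, Nkg7 and Ncr1). The Eomes, Tbx21 and Ifng windows hold neither. Such matches are short strings and do not show binding. Runx3 itself was listed at 0.344 FPKM in control tongue and 0.936 in the carcinomas without a call (1.44 ± 0.71, q = 0.531).

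Genes along the chromosome 14 cluster were listed in both directions. It spans 16 genes in the authors' deposited table from the mast cell chymase Cma1 to Gzmb. Besides Gzmb, the table called Mcpt2 higher, a protease of mucosal mast cells, at 0.0234 and 1.71 FPKM (6.19 ± 1.74, q = 0.0189), although close paralogs beside it could share its reads. It called Gzmn lower, another granzyme of the cluster, at 3.63 FPKM in control tongue and 0.111 in the carcinomas (−5.03 ± 1.01, q = 6.92e-05). Gzmn was thus the most abundant of the listed granzymes in normal tongue, above all 10 members. Gzmb and Mcpt2 lay below the lowest compared level of 0.236 FPKM in normal tongue, and Gzmn lay below it in tumours. The filter therefore fixed the direction of each of these called genes, and they are no evidence of opposing changes. The neighbouring Gzmd, Gzme, Gzmf and Gzmg were listed at no more than 0.0426 FPKM in either group and were not compared. Of the granzymes outside this cluster, Gzmm, a granzyme of NK cells and innate-like T cells, was listed at 2.29 and 0.678 FPKM without a call (−1.76 ± 0.76, q = 0.363), and Gzmk at 0.0118 FPKM in normal tongue and at 0 in tumours. Of the 7 granzymes besides the members 2 were compared, with 1 called lower and a median of −3.39. The median leans on Gzmn, which was compared only through its normal value.

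**Figure D2:**
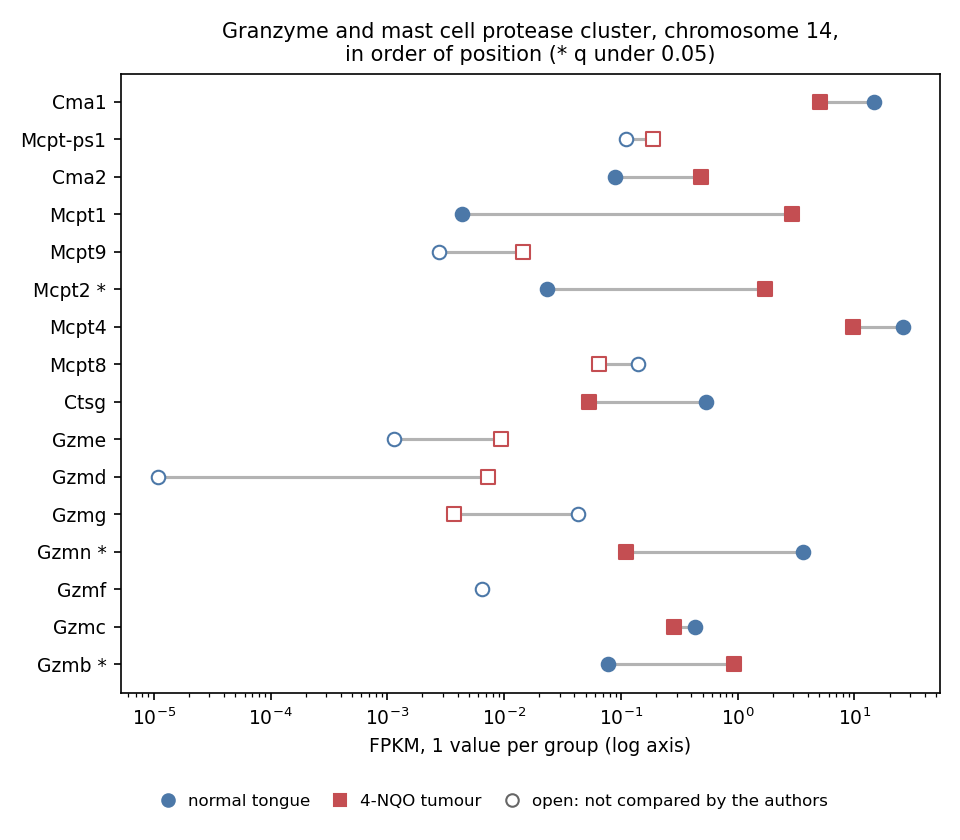
FPKM (log axis) of the 16 genes of the granzyme and mast cell protease cluster, in order of position from Cma1 to Gzmb, in normal tongue (blue circles) and 4-NQO tumours (red squares), 1 deposited value per group; open symbols mark genes that were not compared, and Gzmf has no tumour symbol because it is listed at 0 there. Gzmb and Mcpt2 lie higher and Gzmn lower in tumours with q under 0.05 (asterisks). Each was compared through a single group's value, so the filter fixed its direction.

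Granzyme paralogs can share reads, and how the authors assigned such reads is not known. In GENCODE M21 transcripts, no 50-base window of Gzmb or Gzma occurs in a transcript of another gene. For Gzmc 4.14% of its windows do, with Gzme, Gzmg and Gzmd as partners, and for Gzmn 5.57%. The low values of Gzmd, Gzme and Gzmg, which share 19.8% to 21.9% of their windows with other genes, are therefore less certain than that of Gzmb.

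The pore former and the granule membrane protein were listed higher in tumours without a call. Prf1, which encodes perforin, was at 0.0305 FPKM in control tongue and 0.104 in the carcinomas in the authors' deposited table, and was not compared. Gzmb thus stood 8.92 times above Prf1 in tumours and 2.55 times above it in normal tongue, both as ratios of FPKM. Nkg7, a membrane protein of cytotoxic granules needed for their release, was the most abundant member in both tissues, at 0.638 and 1.13 FPKM. It did not pass (0.83 ± 0.94, q = 1.00), with a 95% interval from −1.01 to 2.66.

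Neither receptor was called. Klrk1 encodes NKG2D, an activating receptor of NK cells and CD8+ T cells, and was listed at 0.177 FPKM in control tongue and 0.432 in the carcinomas in the authors' deposited table. Its log2 fold change of 1.29 ± 1.00 did not pass (q = 1.00), with a 95% interval from −0.67 to 3.24. Ncr1 encodes NKp46, a receptor carried by NK cells and related innate lymphoid cells, and was at 0.0596 and 0.0185 FPKM, the lowest tumour value of the 10. It was not compared. Ifng, the cytokine of the programme, was at 0.0121 FPKM in normal tongue, the lowest value of the 10 there, and at 0.162 in tumours, and was not compared either. In the same GENCODE transcripts 13.5% of the 50-base windows of Ifng also occur in Gm49751, so its level is uncertain beyond its low value.

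The precision of the authors' comparison limited what could be called among these transcripts. The 7 compared members had standard errors from 0.81 to 1.48 on the log2 scale, with a median of 1.00. The median was 0.53 over all compared genes and 0.82 over those of similar level. The smallest absolute statistic of any called gene was 3.22. At the standard error of Gzma a log2 fold change of 3.31 would have been needed for a call, and at that of Tbx21 2.59. Changes smaller than about that size were not detectable at this precision, and the uncalled members are not shown to be unchanged.

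**Figure D3:**
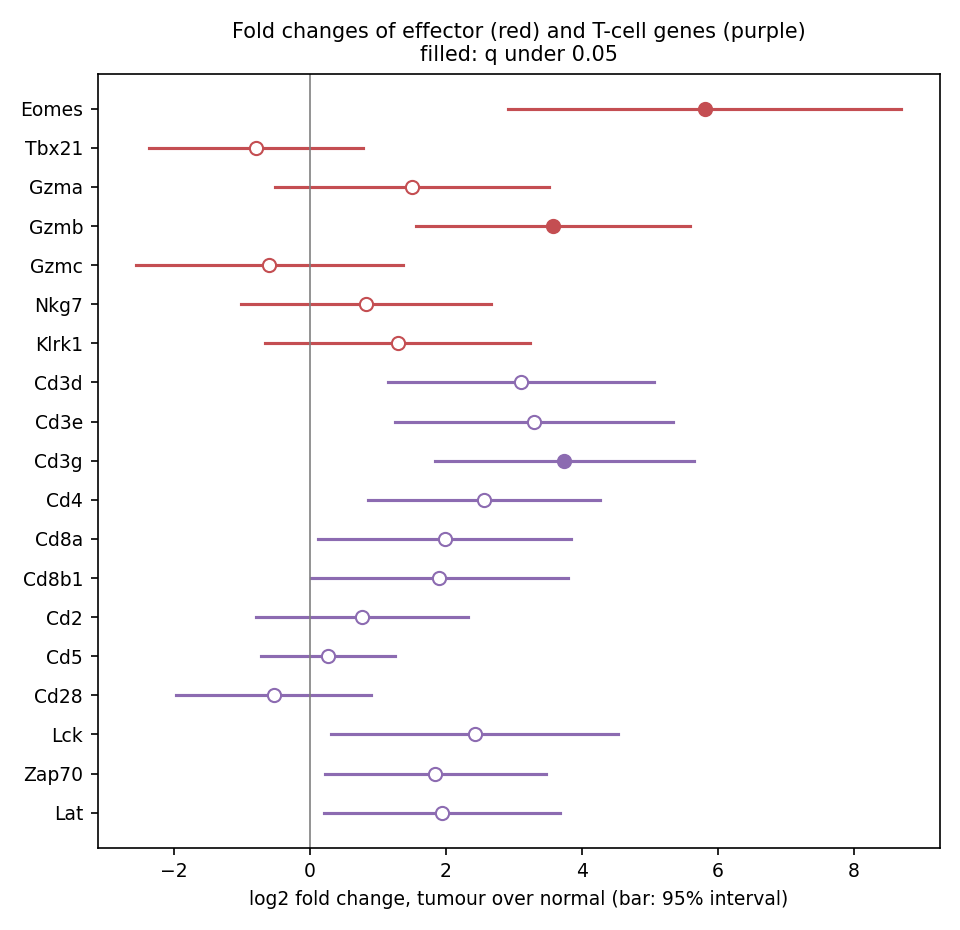
Log2 fold change of tumour over normal for the 7 compared effector genes (red) and 12 compared genes of the T-cell receptor complex and its signalling (purple), with bars for the 95% interval derived from the authors' statistic; filled symbols passed q under 0.05. Eomes, Gzmb and Cd3g passed, all compared only through their tumour value, and the intervals of the other effector genes include 0. Cd247 is left out because its standard error of 4.94 would stretch the axis.

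Most compared T-cell transcripts were listed higher, beside Eomes and Gzmb, but many of these were compared only through their tumour value. Of the NK receptor and adaptor transcripts, 8 of 14 were not compared. Of 14 genes of the T-cell receptor complex and its signalling, 13 were compared in the authors' deposited table, 1 was called higher and none lower, with a median log2 fold change of 1.94. In 8 of the 13 the normal value lay below the lowest compared level and only the tumour value reached it. These were Cd3g, Cd3e, Cd3d, Cd4, Cd8a, Cd8b1, Lck and Zap70. The filter fixed their direction, and the median leans on it. None of the compared genes that reached this level in normal tongue was called. Of those, Lat (1.94 ± 0.89), Cd247 (0.81 ± 4.94), Cd2 (0.76 ± 0.80) and Cd5 were listed higher in tumours. Cd28 was listed lower, at 0.490 and 0.337 FPKM (−0.54 ± 0.73). The called gene was Cd3g, a CD3 signalling chain, at 0.174 FPKM in control tongue and 2.33 in the carcinomas (3.74 ± 0.97, q = 0.00697). Its partners Cd3e and Cd3d did not pass, Cd3e at 0.0808 and 0.792 FPKM (3.29 ± 1.05, q = 0.0598) and Cd3d at 0.132 and 1.13 FPKM (3.10 ± 1.00, q = 0.0683). The coreceptor chains of cytotoxic T cells were below all 3 of these CD3 chains in tumours, while in normal tongue Cd8b1 was listed above Cd3e and Cd3d, with Cd8a at 0.0748 and 0.296 FPKM (1.98 ± 0.95, q = 0.502) and Cd8b1 at 0.135 and 0.505 (1.90 ± 0.96, q = 0.586). Cd4, the coreceptor of helper T cells, was at 0.115 and 0.678 FPKM (2.56 ± 0.87, q = 0.10). The most abundant gene of the list was Cd5, at 4.59 and 5.50 FPKM (0.26 ± 0.50, q = 1.00). The summed level of the 14 genes was 8.25 FPKM in control tongue and 17.8 in the carcinomas, and none was listed at 0.

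Of 14 NK receptors and adaptors, 6 were compared in the authors' deposited table and none was called. Their median log2 fold change was 1.23, but Klrc1 and Cd244, both receptors of NK cells, were compared only through their tumour value. Of the 8 genes that were not compared, 6 were listed lower in tumours and 2 higher. Several of these were nearly equal, such as Klre1 at 0.0280 and 0.0274 FPKM and Cd160 at 0.0968 and 0.0931, so they show no direction. Klrd1, the CD94 chain that pairs with NKG2 receptors, was at 0.415 and 0.686 FPKM (0.72 ± 0.99, q = 1.00). Klrb1c, the NK1.1 antigen that marks NK cells in this strain, was at 0.0524 and 0.0446 FPKM and was not compared. The adaptors were listed higher in level, Hcst (DAP10, the partner of NKG2D) at 0.874 and 1.72 FPKM and Tyrobp (DAP12, also expressed by myeloid cells) at 16.2 and 19.7. The summed level of the 14 was 19.0 FPKM in control tongue and 25.3 in the carcinomas, most of it Tyrobp, and none was at 0. How much of the rise of Eomes and Gzmb follows from T cells or NK cells in the tissue was not tested.

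The ratio of Gzmb to other lymphocyte transcripts depended on the transcript it was set against. The ratio of Gzmb to Cd3e FPKM was 0.962 in control tongue and 1.17 in the carcinomas. Against Klrd1, the NK gene described above, it was 0.187 and 1.35. The ratio of Eomes to Cd3e was 0.221 and 1.26, and to Klrd1 0.043 and 1.46. The ratios of Nkg7, Gzma and Tbx21 to Cd3e were lower in tumours. They were 7.89 and 1.43 for Nkg7, 2.54 and 0.736 for Gzma and 5.47 and 0.322 for Tbx21. The ratios of Gzmc, Klrk1, Prf1 and Ncr1 to Cd3e were also lower in tumours, and that of Ifng was higher, at 0.150 and 0.205. Cd3e itself was compared only through its tumour value, so the filter fixed its direction and ratios to it lean on that. The same holds for Gzmb, Eomes, Gzma and Klrk1, so ratios of these genes to any transcript lean on the filter too. Against Ptprc, which encodes the pan-leukocyte antigen CD45 and was itself at 1.38 and 2.38 FPKM, Nkg7 had ratios of 0.463 and 0.475, whereas Gzmb had 0.0565 and 0.390. These ratios rest on single group values and were not tested. Prf1, Ncr1 and Ifng were not compared by the authors, so their ratios are given as levels only.

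By level in both groups, the genes most like Gzmb in the authors' deposited table were Otud7a, Adam12 and Cd3e, at distances of 0.13, 0.23 and 0.24 log2 units over the 2 group values. Those nearest to Eomes were Cym, Ccl20 and Htr1b, at 0.13, 0.29 and 0.48. With only 2 groups, likeness of this kind describes levels alone.

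No compared gene in the lists of NKG2D ligands, granule cargo and exocytosis, death ligands and receptors or granzyme inhibitors was called. NKG2D recognises stress-induced ligands of the Raet1, H60 and Ulbp1 genes. H60c, which is expressed in mouse skin epithelium, was at 5.67 FPKM in control tongue and 11.9 in the carcinomas in the authors' deposited table and did not pass (1.07 ± 0.46, q = 0.346). Raet1e was at 0.318 and 0.621 FPKM (0.97 ± 1.48, q = 1.00), and these 2 were the only compared ligands with a row of their own, with a median of 1.02. Raet1 genes lie in a locus of near copies, so these assignments are uncertain, and Ulbp1 was listed at 0 in both groups. All 9 genes of granule cargo and exocytosis were compared and none was called, with a median of 0.31. They included Srgn, the proteoglycan that packs granzymes, at 17.1 and 21.3 FPKM, Ctsc, the protease that activates progranzymes, at 14.1 and 29.2 (1.05 ± 0.47, q = 0.411), and Ctsw, a cathepsin of cytotoxic lymphocytes, at 0.247 and 0.949 (1.94 ± 0.93, q = 0.504). Lamp1, a lysosomal membrane protein of all cells, was the most abundant at 226 and 183 FPKM. None of the 4 compared death ligands and receptors was called, with a median of 0.39, and the Fas ligand gene Fasl was at 0.0388 and 0.0885 FPKM, not compared. The most abundant of that list, the death receptor gene Fas, was at 5.09 and 3.01 FPKM. Serpinb9, the mouse inhibitor of granzyme B, was listed at 2.26 and 2.28 FPKM (0.01 ± 0.54, q = 1.00). Serpina3n, a secreted serpin that inhibits mouse granzyme B, was at 6.23 and 17.4 FPKM, just outside the threshold (1.48 ± 0.48, q = 0.0758). None of the 3 compared inhibitors was called, with a median of 0.01.

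Some targets of interferon gamma were higher, although Ifng itself was near the bottom of the range. Of 15 genes of its receptor and response, all compared, 3 were called higher in the authors' deposited table and none was called lower, and the median was 0.83. Of the 15, 9 were listed higher and 6 lower, the latter including the response genes Nos2 (−0.31 ± 0.65) and Cxcl11 (−0.46 ± 4.84). Ido1, listed higher, was compared only through its tumour value. Cxcl9, a chemokine that attracts activated T cells and NK cells, rose from 0.342 to 7.505 FPKM (4.45 ± 0.68, q = 1.25e-08). Socs1, the feedback inhibitor of JAK-STAT signalling, rose from 1.39 to 10.1 FPKM (2.86 ± 0.68, q = 0.00176), and Gbp2, a guanylate-binding protein, from 5.94 to 17.1 (1.53 ± 0.46, q = 0.037). Cxcl10, at 0.544 and 13.4 FPKM, had a wide standard error of 3.55 and no call (q = 1.00). The receptor chains Ifngr1 and Ifngr2 were at 18.7 FPKM each in normal tongue and at 14.1 and 9.69 in tumours, without a call. Jak1, the kinase of the receptor, was the most abundant of the list in normal tongue, at 20.3 and 19.9 FPKM. These genes also respond to other cytokines, and their dependence on Ifng was not tested.

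None of the 10 compared cytokines and receptors that induce cytotoxic cells was called, with a median of 0.51. Of these, 3 were compared only through their tumour value, Il12b, Il18rap and Il2rb, so the filter fixed their direction. Il12b had the largest fold change of the list, at 0.0098 and 0.393 FPKM (5.33 ± 1.89, q = 0.135). Il18 was the most abundant, at 34.8 FPKM in control tongue and 16.6 in the carcinomas in the authors' deposited table (−1.07 ± 0.50, q = 0.473), and Il15, which sustains NK and memory CD8+ T cells, was at 5.87 and 2.57 (−1.19 ± 0.68, q = 0.747). Il2rb, the receptor chain shared by interleukin 2 and interleukin 15 and a known target of Eomes and T-bet, was at 0.210 and 1.02 FPKM (2.28 ± 0.79, q = 0.119).

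**Figure D4:**
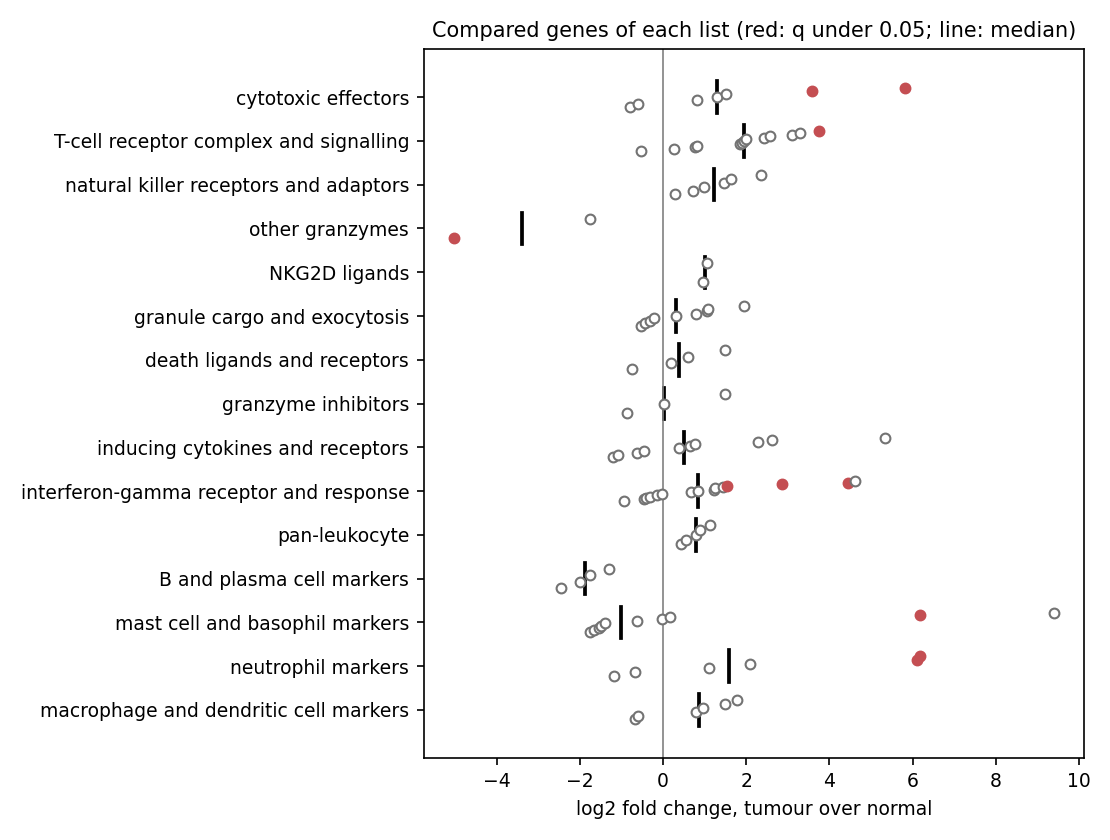
Log2 fold change of tumour over normal for each compared gene of the effector group and of 14 other lists; red symbols passed q under 0.05 and the black line is the list's median. Effector and T-cell medians lie at 1.29 and 1.94, and both lean on genes compared only through their tumour value. All compared B and plasma cell genes lie below 0, 2 of them compared only through their normal value.

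Markers of other leukocytes did not share 1 direction. The 5 pan-leukocyte genes all lay above 0 with a median of 0.79, no call and a summed level of 32.0 FPKM in control tongue and 56.8 in the carcinomas in the authors' deposited table; Cd52 was the most abundant at 11.3 and 24.7. The compared B and plasma cell genes, 4 of 6, had a median of −1.87 and no call, 2 of them compared only through their normal value, and the 6 summed to 3.17 and 0.898 FPKM; the most abundant was the joining chain gene Jchain at 0.878 and 0.262. Of 10 compared mast cell and basophil genes only Mcpt2 was called, the median was −1.02, and the 11 listed summed to 73.3 and 33.5 FPKM; Mcpt4, of connective tissue mast cells, was the most abundant at 25.8 and 9.77. Of 6 compared neutrophil genes S100a8 and S100a9 were called higher, at 59.7 and 4134 FPKM and at 40.4 and 2900. Activated epithelium also makes both. Csf3r (2.09 ± 0.94, q = 0.411) and Cxcr2 were listed higher without a call. Retnlg (3.98 and 2.50 FPKM) and Mmp8 (0.372 and 0.166 FPKM) were listed lower without a call, Mmp8 compared only through its normal value. The median was 1.60 and the sum 106 and 7041 FPKM, most of it S100a8 and S100a9. The 6 macrophage and dendritic cell genes lay on both sides of 0, with a median of 0.87 and no call. The macrophage genes Adgre1 (2.02 and 1.27 FPKM) and Csf1r (8.78 and 5.83 FPKM) were listed lower in tumours, and the other 4 higher. The 6 summed to 162 and 270 FPKM, most of it Cd74 at 143 and 247. None of these marker genes was listed at 0 in either group. Mast cells and basophils can also express Gzmb, and the part of any of these cells in the levels of the 10 transcripts was not tested.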

How the data were processed

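The labels assign 5 samples to normal tongue and 3 to 4-NQO tumours by title. Separate animals are not stated, so p-values may rest on spread that is partly technical. Per the labels' protocols, libraries were made with Illumina TruSeq after poly-T selection. Per the submitters' processing notes, GSNAP 2011.11.17, edgeR and the build GRCh37 were named with no role given. Not given in the sources used here are the program behind the table and its mouse build.

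The deposited table gives 1 FPKM per gene and group, computed by the authors. The unit is taken from the table's column layout, since its header does not name it. The deposited p-value and q-value columns are the authors' own, and no new test between groups was made. The deposited fold change and statistic columns, entered as score values because they hold a placeholder where a group is 0, were used for genes above 0 in both groups only. The deposited fold change matches log2 of the tumour over normal FPKM within 4.88e-05, and a two-sided normal p from the statistic equals the deposited p-value within 2.81e-06. The standard error is the fold change divided by the statistic, and 95% intervals are 1.96 standard errors wide on each side.

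Status was OK in 15783 rows, and rows with the status NOTEST never exceeded 0.244 FPKM. Table starts count from 0 and were shifted by 1: in 7152 genes the end minus the start equals the RefSeq gene length, against 452 for the alternative. Only 1.02% of 20598 genes share a start with GRCm38.p6, so its coordinates are given for promoters alone.

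The members and all 17 other gene lists were chosen with earlier results of these data known. Text names all members and, per list, the called genes, the most abundant gene and those set beside a member. Further genes are named where the filter or the direction or size of a fold change bears on a list. List genes without a row of their own (Raet1a, Raet1c, H60a, Ly6g) are not used here, and the list of lymphocyte lineage factors is not reported here apart from Runx3. The Benjamini-Hochberg step was tested on simulated data. Python 3.11.15, pandas 2.3.3, scipy 1.17.1 and matplotlib 3.10.9 were used.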

Additional observations from a re-analysis of the deposited data

How the results depend on the processing

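The count of called effector genes, 2 with the deposited q under 0.05, was also 2 with a Benjamini-Hochberg adjustment over all compared genes and with a deposited q under 0.1. It was 1, Eomes, with q under 0.01, and 0 when at least 1 FPKM was required in the higher group, since Gzmb and Eomes both stayed under that level. Alternatives chosen after seeing the data, an unadjusted p under 0.05 and an adjustment over genes of similar level, each gave 2. The share of other compared genes called under these later rules was not worked out, so these counts have no background to be read against. The log2 fold change of Gzmb went from 3.58 to 2.53 with a pseudocount of 0.1 FPKM and to 0.84 with 1 FPKM, and that of Eomes from 5.80 to 3.22 and 0.97. Re-centring gave 3.62 and 5.85. The median over the compared members was 1.29, 0.94 with 0.1 FPKM added, 0.38 with 1 FPKM added and 1.33 re-centred, and 0.83 from the single member, Nkg7, at 1 FPKM or more. No median or member fold change changed sign under these settings. Of 17 other lists, the count of called genes moved by over 1.5 times in 5 with the Benjamini-Hochberg adjustment (for T-cell genes from 1 to 4), in 3 at q under 0.1 and in 2 at q under 0.01. No paired analysis was possible because the table holds a single value per group, and for the same reason no sample could be left out. Depth is unknown, and low levels limit every value here.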
